A study of Mus musculus with 605 samples.

Results

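Myeloid cells and bulge stem cells (SCs) of wild-type (WT) mouse dorsal skin at postnatal day 56 (P56) were compared as lineages by group means. Of the 170 labelled cells on these plates, 156 were used, 73 of 78 myeloid cells and 83 of 92 bulge SCs, out of 605 labelled cells in the series. A cell was kept when its TPM values, which are length-corrected shares of a cell's transcripts, summed to at least 750000 over the listed genes and mitochondrial genes made up at most 20% of that sum. A bulge SC also had to have 2000 to 7000 genes above 0, and a myeloid cell at least 1000. The kept myeloid cells had 1797 to 4901 genes above 0 and the kept bulge SCs 2205 to 6817. Just outside these limits were bulge SCs with 1858 and 8208 genes and a myeloid cell with 585, and the nearest totals left out were 616821 TPM in bulge SCs and 654282 TPM in myeloid cells.

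The series asked how skin that carries melanocytic nevi changes its resident cells, and held bulge SCs, myeloid cells and melanocytes from WT mice and from mice with a mutant Nras transgene under the tyrosinase promoter, which is active in melanocytes. Bulge SCs of WT mice at P30 and both cell types from mutant mice at P56 are used below to show which levels recurred. Each of these is also treated as 1 plate, although the mutant myeloid columns name no well. For its RNA-seq the study isolated bulge SCs as GFP+ CD34+ P-cadherin-low cells from K14-H2B-GFP mice, in which a keratin 14 promoter drives a GFP-tagged histone, and the sources used here do not state whether the single-cell plates used the same gate. For the myeloid cells the sources used here give no gates. Capture was on Fluidigm C1 chips with SMARTer amplification, although the labels name Smart-seq2. The labels of both groups give genotype WT, age P56 and dorsal skin, and name no animal. Cells are named by group and well, and no well is repeated within a group. Each group is therefore read here as 1 plate, which is an inference, and counts as 1 sample. Hence no test between groups was possible, no p-value is given, and lineage and plate cannot be told apart. Where a spread over cells is given it describes cells of 1 plate, which are not replicates.

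Skin myeloid cells are macrophages, dendritic cells and monocytes that take up debris and microbes, present peptides on MHC class II molecules and call in other leukocytes with chemokines. Bulge SCs are slow-cycling keratinocytes in the outer wall of the hair follicle, anchored to a basement membrane by hemidesmosomes and to each other by desmosomes, and they regenerate the follicle at each hair cycle. The groups thus differ in how they sense, adhere, move and feed, and each of these functions is described below through its genes.

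For each gene the level in a cell was its TPM scaled to a total of 10000 per cell, plus 1, on the log2 scale, and the difference was the mean over myeloid cells minus the mean over bulge SCs. Scaling to 10000 compresses low genes toward 0, so a gene's TPM and its share of cells are given beside its difference. A gene was called higher in a group when its difference reached 1, and it was counted as present in a cell at 1 TPM or more. Genes found in 10% or more of myeloid cells or of bulge SCs numbered 10527. Of these, 161 (1.53%) were higher in myeloid cells and 220 (2.09%) in bulge SCs, and 3.62% were called in either direction. The median difference over all genes was -0.08, and 7810 genes lay below 0. The myeloid cells had a median of 2946 genes above 0 and the bulge SCs 4271. Without the scaling, on log2(TPM + 1), the median over all genes moved to -0.72, and 974 genes were higher in myeloid cells and 4051 in bulge SCs. With a pseudocount of 0.1 the counts were 603 and 1676. In 27 cells of each group matched on the number of genes, 214 and 188 genes were called. Centring all cells on the median gene gave 188 and 181, so the balance between directions depended on these choices. The 381 called genes kept their sign in all 10 alternative settings. Changing the gene filter left each difference as it was, and centring shifted all by the same small amount. A called gene could therefore not change sign in those settings.

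The labels were checked first against defining genes. Tyrobp, the adaptor that carries signals from activating myeloid receptors, was at 0 to 9119.8 TPM in myeloid cells (median 2569.8) and at 0 to 3700.4 TPM in bulge SCs (median 0). It was present in 69 of 73 myeloid cells (94.5%, exact 95% interval 86.6 to 98.5%) and in 6 of 83 bulge SCs (7.23%, 2.7 to 15.1%). Ptprc, the pan-leukocyte phosphatase CD45, ran from 0 to 1126.2 TPM in myeloid cells (median 110.6) and from 0 to 160.2 TPM in bulge SCs (median 0), with 69 and 4 cells positive. Krt14 and Krt15, the basal and bulge keratins, were listed at 0 in every myeloid cell, which, taking 3 of 73 cells as the limit for a count of 0, allows a share of up to 4.11% of cells at 1 TPM or more. Bulge SCs had Krt14 at 0 to 40372.7 TPM (median 7224, 80 cells positive) and Krt15 at 0 to 19535.8 TPM (median 5554, 82 cells positive). All intervals cover counting error only. These 4 genes thus followed the labels in most cells, and for Tyrobp and Ptprc the ranges overlapped.

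Each cell was then assigned to the lineage marker list with the highest mean level over its genes, on the log2 scale above. By this measure 79 of 83 bulge SCs were led by keratinocyte markers (95.2%, 88.1 to 98.7%). Likewise, 69 of 73 myeloid cells were led by myeloid markers (94.5%, 86.6 to 98.5%). Of the 4 other bulge wells, 3 were led by melanocyte markers, with the melanin enzyme gene Dct at 3183 to 9809 TPM, while Krt14 was at 1019 to 6283 TPM in the same wells. The fourth held Tyrobp at 3700 TPM and Cd74 at 5126 TPM together with Krt14 at 984 TPM. The 4 other myeloid wells were led by T and NK cell markers, with the T-cell receptor subunit gene Cd3e at 237 to 1195 TPM and Tyrobp listed at 0. Leaving these 8 wells out raised the Tyrobp difference from 4.53 to 4.88, and its lowest myeloid value (585.1 TPM) then lay above its highest bulge value (212.9 TPM). The myeloid list that helped to pick these wells includes Tyrobp, Fcer1g, Cd68, Ctss and Laptm5. Their changes without the wells therefore follow in part from that choice. The highest bulge value of several myeloid genes came from these wells, and for the class II chains, Fcer1g, Tmsb4x, Wfdc17, S100a4 and Cd68 it is also given without them.

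Of the other lineages whose markers were read, all 12 keratinocyte markers were above 0 in some bulge SC, whereas 9 of 12 were listed at 0 in every myeloid cell. Their summed level ran from 3060 to 70628 TPM in bulge SCs and from 0 to 264.3 TPM in myeloid cells. The 12 myeloid markers summed to 1730 to 27913 TPM in myeloid cells and to 0 to 11463 TPM in bulge SCs, of which 16 reached 100 TPM. By 1 or more, 9 of the 12 were higher in myeloid cells. Lyz2 was not, being present in 10 cells of each group (means 16.4 TPM in myeloid cells and 52.2 TPM in bulge SCs, difference -0.04). Itgam was present in 31 myeloid cells at a mean of 14.9 TPM (difference 0.18). Summed T and NK markers reached 100 TPM in 28 myeloid cells and 3 bulge SCs. Of these markers Il7r was present in 35 myeloid cells (mean 136 TPM), whereas Cd3d, Cd3e, Cd3g, Cd2 and Nkg7 were present in 4 or 5 each. Fibroblast markers did so in 7 and 11 cells, with Pdgfra listed at 0 throughout. Melanocyte markers reached 100 TPM in 7 bulge SCs and in no myeloid cell. Differentiating keratinocyte markers did so in 35 bulge SCs, with a highest sum of 20138 TPM, and in no myeloid cell. Endothelial markers reached 100 TPM in 7 myeloid cells and B cell markers in 5, and neither did so in any bulge SC. The part of these wells in the differences below was not tested beyond leaving out the 8 wells above. Cd34, a gene of the bulge gate above, was present in 8 of 83 bulge SCs at a mean of 8.07 TPM, and the bulge SC gene Lgr5 in 35 of 83. In the study's clustering, WT P56 bulge cells included cells matched to the inner bulge beside outer bulge SCs. The cells called bulge SCs here were not divided in that way.

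**Figure D1:**
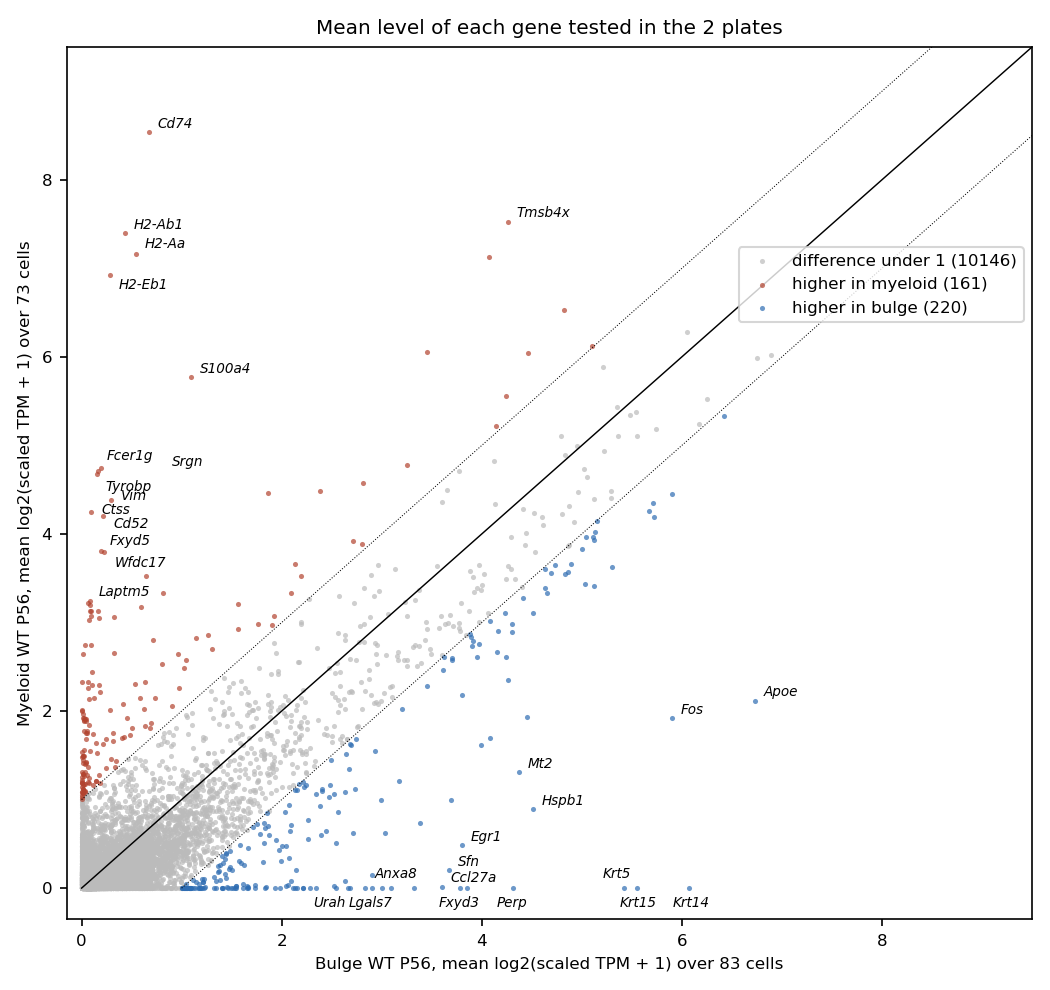
Mean level of each of the 10527 genes in bulge SCs (x axis) and myeloid cells (y axis), as mean log2(TPM scaled to 10000 + 1) over 83 and 73 cells. The 161 genes higher in myeloid cells and the 220 higher in bulge SCs by 1 or more are coloured, and the class II genes Cd74, H2-Ab1, H2-Aa and H2-Eb1 lie farthest above the diagonal.

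The list with the largest median difference was the MHC class II pathway, which loads peptides from engulfed material for display to T cells. All 12 measured members were higher in myeloid cells than in bulge SCs on average, 8 of them by 1 or more, and the list's median difference was 2.95 against -0.08 over all genes. Mean TPM summed over the list was 118479 in myeloid cells, of a total of 752560 to 915896 TPM per cell, and 917 in bulge SCs. The promoters of 3 class II genes are printed here because the class II loci are regulated together and share promoter elements, of which the Y box is a known one. Each sequence is the 250 bases upstream of the transcription start in RefSeq, build GRCm38.p6, written 5′ to 3′ on the gene's strand, with the Y box core letters TGATTGG in capitals.
H2-Aa, chr17:34287824-34288073, minus strand: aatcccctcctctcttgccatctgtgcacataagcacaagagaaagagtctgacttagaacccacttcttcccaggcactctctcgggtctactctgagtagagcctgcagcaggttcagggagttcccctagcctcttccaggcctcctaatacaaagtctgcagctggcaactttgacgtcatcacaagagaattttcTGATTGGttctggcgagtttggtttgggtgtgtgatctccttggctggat
H2-Eb1, chr17:34305617-34305866, plus strand: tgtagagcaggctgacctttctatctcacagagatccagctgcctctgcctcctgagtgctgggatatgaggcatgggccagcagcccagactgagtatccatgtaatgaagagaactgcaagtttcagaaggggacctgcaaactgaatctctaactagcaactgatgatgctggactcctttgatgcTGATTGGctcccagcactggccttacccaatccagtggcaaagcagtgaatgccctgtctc
H2-DMb1, chr17:34152941-34153190, plus strand: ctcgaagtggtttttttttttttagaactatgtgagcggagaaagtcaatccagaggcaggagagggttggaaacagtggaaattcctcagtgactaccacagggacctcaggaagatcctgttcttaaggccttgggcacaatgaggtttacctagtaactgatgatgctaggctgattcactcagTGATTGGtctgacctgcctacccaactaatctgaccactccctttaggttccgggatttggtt

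The first base of the capitals lay 50, 61 and 63 bases before the start in H2-Aa, H2-Eb1 and H2-DMb1. On either strand, TGATTGG occurred in 6 of the 9 class II list genes that had a RefSeq window (H2-Aa, H2-DMb1, H2-DMb2, H2-Eb1, H2-Oa and H2-Ob) and not in those of Ctss, H2-DMa and Ifi30. The same 7 letters were in 7.23% of all 32851 windows and in 11.1% of the 7937 genes tested that had one. They were in 10 of 116 genes higher in myeloid cells (8.62%) and in 13 of 162 higher in bulge SCs (8.02%). The MHC class I list had them in 7 of 18 windows (38.9%). With a C before them, as CTGATTGG, they were in 3 of the 9 class II and 5 of the 18 class I windows. The letters were chosen after the windows had been looked at, and a match is a description of sequence.

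Cd74, the invariant chain that guides class II molecules to the endosome, ran from 1.9 to 124972 TPM in myeloid cells (median 57683) and from 0 to 5268 TPM in bulge SCs (median 0). The level in myeloid cells was higher by 7.87 on the log2 scale (SD over cells 2.31 and 1.30). Cd74 was above 1 TPM in every myeloid cell and in 30 of 83 bulge SCs. The lowest myeloid values, 1.9 to 12.7 TPM, were those of the 4 wells led by T and NK markers, and without the 8 wells the lowest myeloid value was 2625.6 TPM and the difference 8.45. H2-Ab1, a class II beta chain, had a median of 23108 TPM in myeloid cells (1.6 to 58226) and of 0 in bulge SCs (0 to 11689), a difference of 6.96. H2-Aa, the alpha chain, ran from 0 to 48206 TPM in myeloid cells (median 21632) and from 0 to 9011 TPM in bulge SCs (median 0), and its difference was 6.61. H2-Eb1, another beta chain, differed by 6.64, with a median of 17054 TPM in myeloid cells and 0 in bulge SCs. Without the 8 wells the highest bulge values of H2-Ab1, H2-Aa and H2-Eb1 were 4528, 1642 and 933 TPM. A minority of bulge SCs thus held class II transcripts, from 15 of 83 cells for H2-Eb1 to 30 for Cd74, and the median over all bulge SCs was 0 for each of the 4 genes. Of the peptide-loading genes, H2-DMa differed by 2.87 and H2-DMb1 by 3.04, present in 67 and 65 myeloid cells and in 11 and 12 bulge SCs. Ctss, the protease that trims the invariant chain, had a median of 1821 TPM in myeloid cells (0 to 7480) and was present in 5 bulge SCs, and Ifi30, a lysosomal thiol reductase, differed by 2.52. Ciita, the class II transactivator, was a low transcript, at 21.9 TPM on average in myeloid cells (32 of 73 cells) and 0.38 TPM in bulge SCs (2 of 83 cells), a difference of 0.23.

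MHC class I genes, which nearly all nucleated cells express, differed far less. The list's median was 0.15 (0.41 in the cells matched on the number of genes), with 2 of 20 measured members past 1. B2m, the class I light chain, ran from 2029 to 16557 TPM in myeloid cells (median 5666) and from 86.1 to 14766 TPM in bulge SCs (median 4619), so the groups overlapped over most of their range. H2-D1 behaved alike, with medians of 3314 and 2458 TPM and a difference of 1.07. The spread of the bulge values was wider, with an SD over cells of 1.66 for H2-D1 against 0.55 in myeloid cells. Reads of H2 genes can be split among near-identical copies, so their single values are uncertain.

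The receptors and adaptors by which myeloid cells sense immune complexes and microbes came next. Of 15 measured ITAM adaptors and proximal kinases 14 lay above 0, but only Tyrobp and Fcer1g passed 1 (list median 0.49). Fcer1g, the Fc receptor gamma chain, ran from 0 to 8267 TPM in myeloid cells (median 2719) and was present in 69 of them and in 7 bulge SCs, of which none exceeded 1438 TPM once the 8 wells were left out. Lyn, a Src-family kinase downstream of such receptors, was present in 54 myeloid cells at a mean of 87.9 TPM and listed at 0 in every bulge SC, which by the same limit allows a share of up to 3.61% of cells at 1 TPM or more. Of 5 measured Fc receptor genes 3 passed 1, namely Fcer1g, the inhibitory receptor gene Fcgr2b (488 against 9.16 TPM on average, difference 2.07) and Fcgr3 (272 against 0.86 TPM, 1.28). Of 17 C-type lectin receptors, which bind sugars on microbes and glycoproteins, 7 passed 1 and all lay above 0 (median 0.89, or 0.44 in the cells matched on the number of genes). The galactose-type lectin gene Mgl2 ran from 0 to 4014 TPM in myeloid cells (median 1103) and was present in 61 of 73 of them and in 5 bulge SCs. Cd209a and Cd209d, relatives of DC-SIGN whose near-identical copies can share reads, were present in 47 and 51 myeloid cells and in 5 bulge SCs each. Mrc1, the mannose receptor, had a mean of 307 TPM in myeloid cells (56 cells) and of 1.12 TPM in bulge SCs (2 cells).

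Of 13 Toll-like receptor genes and adaptors, Cd14 and Ly86 passed 1. Cd14, the lipopolysaccharide co-receptor, was present in 57 myeloid cells at a mean of 693 TPM and in 3 bulge SCs at 2.08 TPM. Ly86, which encodes the MD-1 partner of a Toll-like receptor homologue, was present in 60 and 3 cells. Tlr2, a receptor for bacterial lipoproteins, was present in 36 of 73 myeloid cells and 1 of 83 bulge SCs, with a difference of 0.57. Of 8 measured TREM, PIR, CD300 and SIRP receptors, which mostly tune activation up or down, only the inhibitory receptor gene Lilrb4a passed 1 (926 against 1.76 TPM, difference 2.62), and 5 were listed at 0 in every bulge SC. Lilrb4a shares near-identical sequence with a neighbouring gene. Of 12 cytosolic sensor genes none passed 1 (median 0.13), and of 11 scavenger and efferocytosis receptors only Cd68 did. The GAS6 receptors Axl and Mertk, which bind apoptotic cells and are known from macrophages, were present in more bulge SCs than myeloid cells, Axl in 53 of 83 against 7 of 73 and Mertk in 23 of 83 against 5 of 73. Their ligand gene Gas6 was present in 75 bulge SCs and 25 myeloid cells.

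Complement genes were present in a subset of myeloid cells. C1qa, C1qb and C1qc, the chains of the first complement component, had means of 824, 1535 and 884 TPM over all 73 myeloid cells, but were present in only 23, 25 and 26 of them, and in 1, 2 and 0 bulge SCs. All 3 chains were present together in 23 myeloid cells, and none of the 3 in 46. As a description of cells grouped by these data, Pf4 was present in 22 of the 23 and 2 of the 46, Ccl8 in 19 and 4, Stab1 in 18 and 1, Il1b in 3 and 36, Il7r in 1 and 31, and Ccr7 in 1 and 14. The mean myeloid level of these genes is therefore a mix of cells with high TPM and cells at 0. Cfp, the complement-stabilising properdin, was more widely present, in 48 of 73 myeloid cells and no bulge SC.

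Of the ligands for T cells, Cd83, a surface protein of activated dendritic cells, had a median of 1149 TPM in myeloid cells (0 to 4576) and was at most at 120 TPM in bulge SCs. Its difference was 3.11. Cd86, a ligand of CD28, was present in 62 myeloid cells and 2 bulge SCs (difference 1.87), and Cd274, the checkpoint ligand PD-L1, in 32 and 13 (0.35). Of 13 measured co-stimulatory and checkpoint ligands 3 passed 1, all in the direction of myeloid cells.

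**Figure D2:**
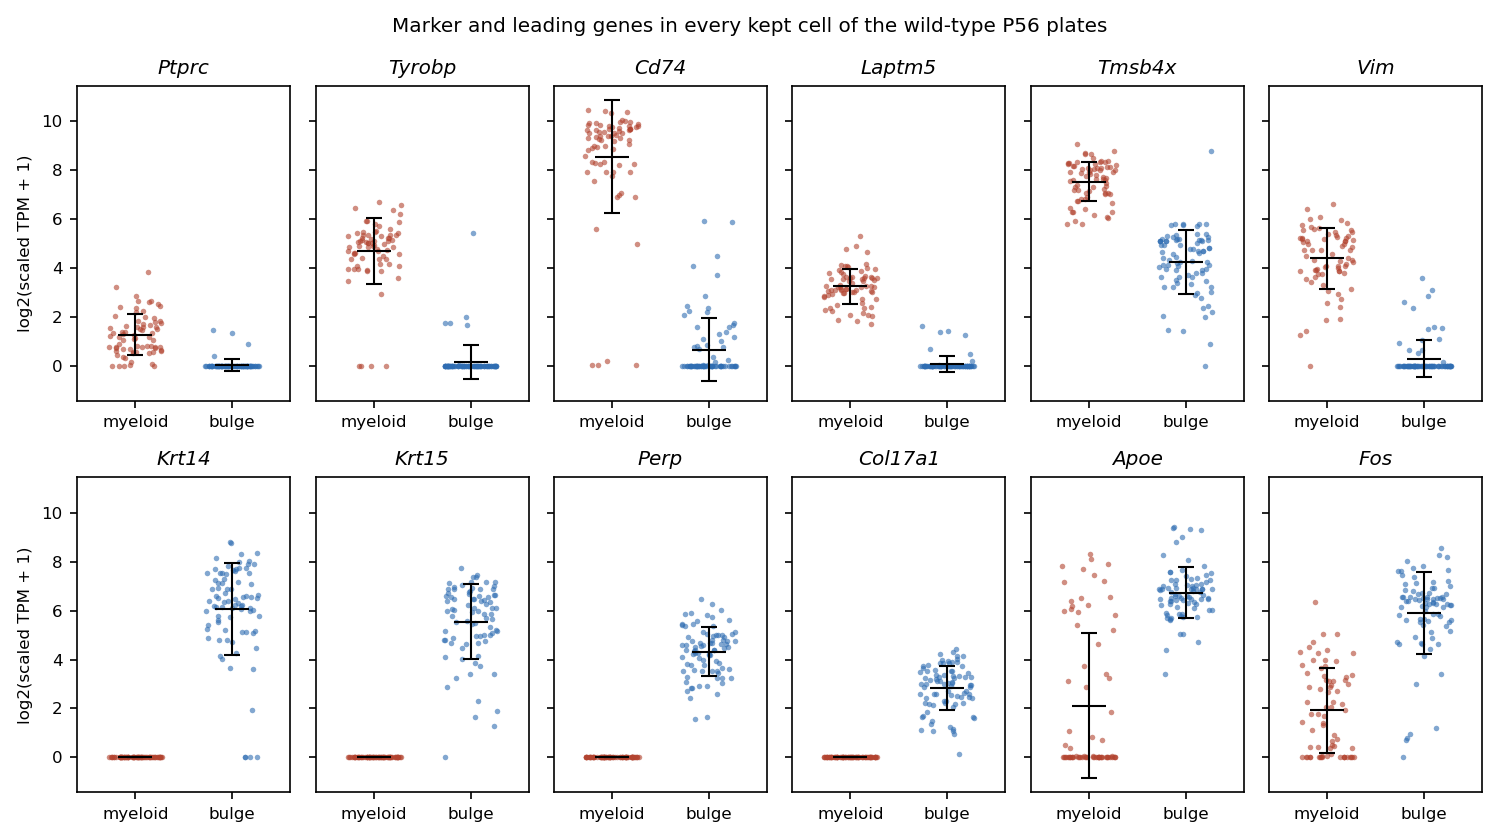
TPM of 12 genes in each of the 73 myeloid cells and 83 bulge SCs, as log2(TPM scaled to 10000 + 1), with the mean and SD over cells of each group. For Tyrobp, 69 myeloid cells and 6 bulge SCs were at 1 TPM or more, and Krt14 and Krt15 were at 0 in all 73 myeloid cells.

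Both lineages had chemokines of their own. Of 20 measured, 10 were higher in myeloid cells and 2 in bulge SCs by 1 or more, and the median was 0.91. In myeloid cells the monocyte and T-cell attractants reached high levels in some cells only. Ccl8 averaged 12048 TPM and peaked at 121501 TPM, yet was present in 24 of 73 cells, with a median of 0. Ccl4 averaged 3299 TPM with 33 cells positive, Pf4 averaged 2649 TPM with 25 cells positive, and Ccl2 averaged 1049 TPM with 35 cells positive. Ccl9 was the most widely present of the 10, in 59 cells (median 240 TPM), against 2 bulge SCs. The bulge chemokines were Ccl27a and Cxcl14, which in skin are known from keratinocytes. Cxcl14 ran from 0 to 1686 TPM in bulge SCs (median 245) and was listed at 0 in every myeloid cell. Ccl27a ran from 0 to 17881 TPM in bulge SCs (median 2079) and was present in 67 of 83 of them and in 1 of 73 myeloid cells, although its reads can be shared with the near-identical Gm13306. Cxcl16, a membrane-bound chemokine, was present in both groups, in 56 myeloid cells and 44 bulge SCs, and differed by 1.17.

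Among interleukins, TNF family members and interferons, 2 of 18 passed 1. Il1b, the inflammasome-processed interleukin, ran from 0 to 12561 TPM in myeloid cells (median 219.5) and from 0 to 308.3 TPM in bulge SCs (median 0), and 43 and 6 cells were positive. Tnf was present in 41 myeloid cells (mean 350 TPM) and 12 bulge SCs (14.4 TPM). Among 34 cytokine receptors 5 were higher in myeloid cells, namely Csf1r, Csf2ra, Csf2rb, Il2rg and Tnfrsf1b. Csf2ra, the GM-CSF receptor alpha chain, was the most widely present of these, in 67 of 73 myeloid cells (91.8%) and 9 of 83 bulge SCs (10.8%). The receptor gene higher in bulge SCs was Il17rc, a chain of the IL-17 receptor, present in 52 of 83 bulge SCs (mean 148 TPM) and 1 of 73 myeloid cells.

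Ligands and receptors were then set side by side as shares of cells in which each was present. Il34, a ligand of the CSF1 receptor, was present in 35 of 83 bulge SCs (42.2%, 31.4 to 53.5%) and listed at 0 in the myeloid cells. The receptor gene Csf1r was present in 53 of 73 myeloid cells (72.6%, 60.9 to 82.4%) and 4 of 83 bulge SCs (4.82%). Csf1, its other ligand, was present in 13 bulge SCs and 2 myeloid cells. Cxcl12 was present in 31 bulge SCs and no myeloid cell, and its receptor gene Cxcr4 in 44 myeloid cells and 5 bulge SCs. Il33 was present in 34 bulge SCs and no myeloid cell, but its receptor Il1rl1 in only 8 myeloid cells. In the other direction, Osm was present in 13 myeloid cells and no bulge SC, and its receptor Osmr in 47 bulge SCs (56.6%, 45.3 to 67.5%) and no myeloid cell. Il1r1, the receptor of Il1b, was present in 32 bulge SCs and 14 myeloid cells. Spp1, a ligand of CD44, was present in 10 of 73 myeloid cells at a mean of 69.1 TPM and was listed at 0 in all 83 bulge SCs. Cd44 itself was present in both, in 71 of 73 myeloid cells (mean 362 TPM) and 65 of 83 bulge SCs (58.4 TPM), with a difference of 1.40. Igf1 was present in 23 myeloid cells and 1 bulge SC, and its receptor Igf1r in 14 bulge SCs and 1 myeloid cell. Some pairs lay within the bulge SCs: Hbegf in 62 and its receptor Egfr in 50 cells, against 6 and 4 myeloid cells, and Bmp2 in 52 and Bmpr1a in 33 cells, against 0 and 1. Shared presence of transcripts says nothing of protein or contact between these cells.

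The cytoskeleton separated the groups by filament type. All 10 measured keratins lay below 0 and 8 of them were listed at 0 in every myeloid cell. Besides Krt14 and Krt15, Krt5, the partner of keratin 14, ran from 0 to 16563 TPM in bulge SCs (median 4200, 81 cells positive), and Krt17 from 0 to 7651 TPM (median 555, 70 cells positive). Differentiation keratins were present in fewer bulge SCs, Krt10 in 48 and Krt1 in 16 of 83. Vim, the intermediate filament of mesenchymal and blood cells, was the reverse. It ran from 0 to 7962 TPM in myeloid cells (median 1966, 72 cells positive) and from 0 to 933.4 TPM in bulge SCs (median 0, 15 cells positive), with a difference of 4.10. Of the 2 cytoplasmic actins, Actb differed by 1.58, with medians of 5371 and 1813 TPM, whereas Actg1 differed by -0.14, with medians of 3941 and 3700 TPM and overlapping ranges. Of 15 tubulin and microtubule genes, Tubb4b (mean 100 against 1078 TPM), Tuba4a and Tuba1b were higher in bulge SCs and Tubb6 in myeloid cells (191 against 16.1 TPM), with the reservation that tubulins are similar in sequence.

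Of 29 measured haematopoietic actin regulators 28 lay above 0 and 9 passed 1 (median 0.45), whereas of 31 epithelial actin and myosin regulators 27 lay below 0 and only Actn4 passed -1 (median -0.14). Over all 10527 genes 7810 lay below 0 (median -0.08), 1.53% passed 1 and 2.09% passed -1. The epithelial list was therefore near the background. Tmsb4x, which encodes the actin monomer-binding thymosin beta 4, ran from 4781 to 46265 TPM in myeloid cells (median 17957) and from 0 to 38415 TPM in bulge SCs (median 1882). Without the 8 wells the highest bulge value was 4935 TPM, against a lowest myeloid value of 4781 TPM. Both groups expressed it in nearly all cells, and the difference of 3.27 was one of level. Lsp1, a leukocyte actin-binding protein, was present in 64 myeloid cells and 10 bulge SCs (1168 against 19.7 TPM). Coro1a, a coronin of actin turnover, was present in 63 and 5 cells, and Lcp1, the leukocyte plastin that bundles actin, in 71 and 3.

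Paralogs made the same contrast within gene families. In 44 pairs a family member known mainly from blood cells was set beside a broadly expressed one, and both were measured in 41. The blood-cell member had the larger difference in 37 pairs, and in 30 it lay above 0 while the other lay below. Of 36 distinct blood-cell members 34 lay above 0 and 9 reached 1 (median 0.42), while of 41 general members 32 lay below 0 and only Gsn reached -1 (median -0.10). Over all 10527 genes 7810 lay below 0, with a median of -0.08, so the general members were near the background. In no pair were both past 1 in opposite directions. Hcls1, the blood-cell cortactin, was present in 58 myeloid cells (98.9 TPM) and 2 bulge SCs, and Cttn, cortactin itself, in 70 bulge SCs (107 TPM) and listed at 0 in the myeloid cells. Fermt3 and Fermt1, kindlins that activate integrins, were present in 41 myeloid cells and 2 bulge SCs and in 0 and 70. Laptm5 differed by 3.16, and its relatives Laptm4a and Laptm4b by -0.18 and -0.38. Capg and Gsn, of the gelsolin family, differed by -0.18 and -1.30, so the member known from macrophages was at similar levels in both groups (means 619 and 617 TPM). The broad member had the larger difference in Grap and Grb2 (0.38 and 0.50), Fgr and Fyn (0.27 and 0.44), Bin2 and Bin1 (0.22 and 0.40), and Apbb1ip and Raph1 (0.13 and 0.20).

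**Figure D3:**
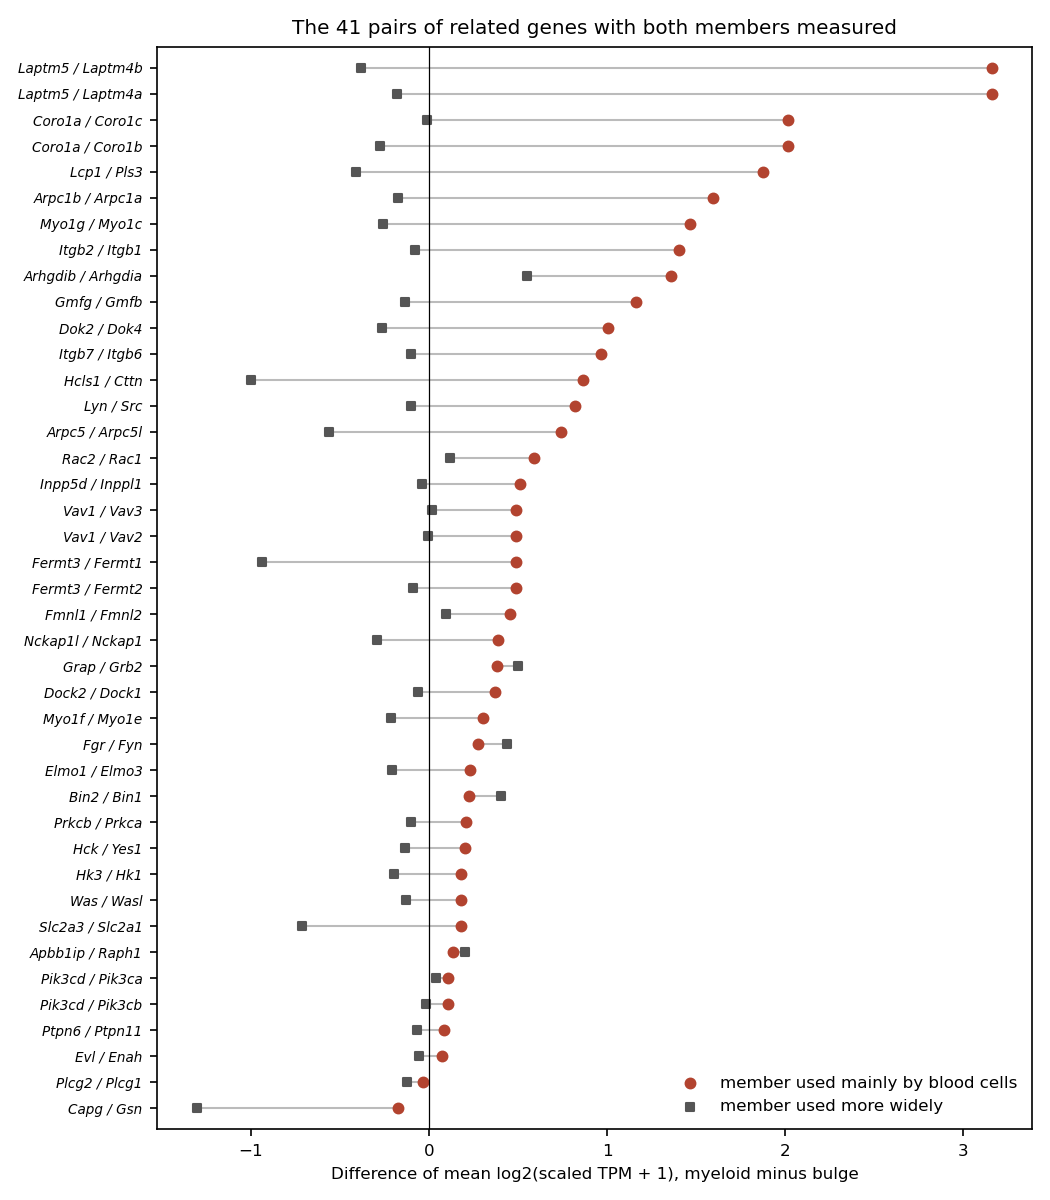
Difference (myeloid minus bulge, mean log2 scale) of the blood-cell member and of the general member of each of 41 paralog pairs, with a line joining the members of a pair. In 30 pairs the blood-cell member is above 0 and the general member below 0, and in 37 the blood-cell member is the higher one.

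Adhesion genes followed the same division. All 9 measured desmosomal genes lay below 0 (median -0.999, or -0.62 in the matched cells, 4 passing -1), with 7 of them listed at 0 in every myeloid cell. Perp, a desmosomal membrane protein, ran from 171 to 8017 TPM in bulge SCs (median 1863) and was listed at 0 in all myeloid cells, so the groups did not overlap. Dsc3, a desmosomal cadherin, was present in 82 of 83 bulge SCs (median 180 TPM) and in no myeloid cell. Jup, plakoglobin, which also serves adherens junctions, was present in 79 bulge SCs (437 TPM) and 46 myeloid cells (56.0 TPM), a difference of -1.71. All 20 hemidesmosome and basement membrane genes lay below 0 (median -0.39) and 3 passed -1. For comparison, 7810 of all 10527 genes lay below 0 (median -0.08) and 2.09% passed -1. Col17a1, the hemidesmosomal collagen, ran from 10.03 to 1905 TPM in bulge SCs (median 611) and was listed at 0 in the myeloid cells. Itgb4 and Itga6, the integrin of hemidesmosomes, were present in 76 and 72 bulge SCs and in 0 and 2 myeloid cells. Of 15 tight and gap junction genes Gja1 (connexin 43), F11r and Epcam passed -1, present in 71, 71 and 65 bulge SCs and in 1, 2 and 3 myeloid cells.

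Of 18 leukocyte integrins and adhesion molecules 16 lay above 0 and 6 passed 1 (median 0.60, or 0.38 in the matched cells). Cd52, a short glycoprotein of lymphocytes and myeloid cells, had a median of 2063 TPM in myeloid cells (0 to 7932) and was present in 8 bulge SCs. Cd53, a leukocyte tetraspanin, was present in 72 of 73 myeloid cells (median 770 TPM) and 3 of 83 bulge SCs, a difference of 3.16. Itgb2, the beta 2 integrin chain, was present in 61 and 2 cells, and Selplg, the selectin ligand PSGL-1, in 64 and 7. Itgb1, the beta 1 chain that many integrins share, was present in 60 myeloid cells and 68 bulge SCs and differed by -0.08. Icam1, a ligand of beta 2 integrins, was at a mean of 171 TPM in myeloid cells and 419 TPM in bulge SCs. This order did not recur in the mutant pair, with means of 144 TPM in myeloid cells and 73.6 TPM in bulge SCs. At P30 the bulge mean was 63.3 TPM.

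Secreted and surface-associated proteins went both ways. Of 21 extracellular proteases and inhibitors 4 were higher in myeloid cells and 2 in bulge SCs. Wfdc17, a small secreted inhibitor-like protein, ran from 0 to 26128 TPM in myeloid cells (median 1438, 62 cells positive) and from 0 to 10966 TPM in bulge SCs (median 0, 8 cells positive). Without the 8 wells its highest bulge value was 1330 TPM. Plaur, the urokinase receptor, was present in 50 and 2 cells. The serpin genes Serpinb5 and Serpinb2 were present in 76 and 58 bulge SCs and in 0 and 2 myeloid cells. Of 25 matrix and matricellular genes 22 lay below 0 (median -0.13), with 11 listed at 0 in every myeloid cell, and Cyr61, Thbs1 and Postn passed -1. As 7810 of all 10527 genes lay below 0 (median -0.08), the matrix list's median was near the background. Cyr61, a matricellular protein, was present in 66 bulge SCs (592 TPM) and 1 myeloid cell (5.77 TPM).

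Of 17 S100 and annexin genes, which encode calcium-binding proteins, S100a4 and Anxa5 passed 1 and Anxa8, S100a14 and S100a16 passed -1. S100a4 ran from 0 to 20624 TPM in myeloid cells (median 6676) and from 0 to 22560 TPM in bulge SCs (median 0, 35 cells positive), and without the 8 wells its highest bulge value was 5027 TPM. Anxa8 had a median of 1140 TPM in bulge SCs and S100a14 of 291 TPM, and both were listed at 0 in the myeloid cells. The galectins divided too, since Lgals3 differed by 1.52 with most cells of both groups positive (69 and 74), while Lgals7, an epithelial galectin, was present in 80 bulge SCs (median 742 TPM) and no myeloid cell. Srgn, the proteoglycan core of leukocyte granules, was present in all 73 myeloid cells (7.9 to 12651 TPM, median 3032) and 6 bulge SCs, and Sfn, the epithelial 14-3-3 protein, in 82 bulge SCs (median 1168 TPM) and 18 myeloid cells. Fxyd5, a sodium pump regulator, was present in 70 myeloid cells (median 1465 TPM) and 9 bulge SCs, and Urah, an enzyme of urate breakdown, in 81 bulge SCs (median 582 TPM) and no myeloid cell. Of 16 interferon-stimulated genes, Ifi27l2a passed 1 (976 against 110 TPM) and Ifitm3 passed -1 (428 against 1338 TPM).

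Genes whose cells did not overlap at all were few. Laptm5, a lysosomal protein of blood cells, was the only one with every myeloid cell (195.7 to 3329.6 TPM) above every bulge SC (0 to 186.5 TPM), which was 0.0095% of genes. Every bulge SC was above every myeloid cell for 6 genes (0.057%), namely Perp, Col17a1, Fxyd3, a regulator of the sodium pump that ran from 138 to 3420 TPM in bulge SCs, and the predicted genes Gm10020, Gm10260 and Gm26619. Leaving out the 8 wells, Tyrobp and Ctss joined Laptm5, and Dsc3 joined the bulge genes. Tyrobp, Ctss and Laptm5 belong to the marker list used to pick these wells, so their separation is no independent support. With all labelled cells and no filter, only Perp remained. Of the 220 genes higher in bulge SCs 56 were listed at 0 in every myeloid cell, and of the 161 higher in myeloid cells 8 were listed at 0 in every bulge SC. The myeloid cells had a median of 2946 genes above 0 and the bulge SCs 4271, and the share of all genes at 0 is not given. These counts, and those of list members at 0 in every myeloid cell, are therefore descriptions only.

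Among metabolic lists, the 38 nuclear genes of oxidative phosphorylation had a median of -0.49, with 33 below 0 and 4 passing -1. Over all 10527 genes the median was -0.08, with 7810 below 0 and 2.09% passing -1. Uqcrc1, a complex III core subunit, ran from 0 to 1456 TPM in bulge SCs (median 513) and from 0 to 914 TPM in myeloid cells (median 111.5). Of 23 genes of the TCA cycle and pyruvate entry 22 lay below 0, none past 1 (median -0.44). Glycolysis had a median of -0.15, and only Tpi1, triosephosphate isomerase, passed -1. Its mean was 150 TPM in myeloid cells and 492 TPM in bulge SCs. The ranges of both genes overlapped between the groups. In the cells matched on the number of genes the medians of oxidative phosphorylation and glycolysis were -0.27 and -0.09.

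Lysosomal genes leaned the other way, with 27 of 36 above 0 and 10 passing 1 (median 0.43). Cd68, a glycoprotein of endosomes and lysosomes, ran from 0 to 6302 TPM in myeloid cells (median 727, 68 cells positive) and from 0 to 320 TPM in bulge SCs (median 0, 14 cells positive), or to 122 TPM without the 8 wells. The cathepsin genes Ctsz (908 against 74.2 TPM), Ctsc (541 against 18.4 TPM) and Ctsh (419 against 67.7 TPM) passed 1, whereas Ctsl differed by -0.46 and was present in 24 myeloid cells and 62 bulge SCs. Of 16 iron and haem genes 4 passed 1. The ferritin genes Ftl1 and Fth1 were in nearly all cells of both groups, with medians of 14167 and 8146 TPM in myeloid cells and 1641 and 3010 TPM in bulge SCs, and Ftl1 has near-identical copies. Hmox1, heme oxygenase, was present in 51 myeloid cells (1089 TPM) and 7 bulge SCs (11.2 TPM). Cyba, a membrane subunit of the phagocyte NADPH oxidase, differed by 2.33, and its partner Cybb was present in 46 myeloid cells and listed at 0 in the bulge SCs. Among peroxide and glutathione enzymes, Prdx6 and Gstm1 passed -1, with means of 199 and 59.02 TPM in myeloid cells against 542 and 255 TPM. Alox5ap, which hands arachidonic acid to 5-lipoxygenase for leukotriene synthesis, was present in 67 myeloid cells (median 788 TPM) and 7 bulge SCs. It was the only 1 of 12 eicosanoid genes past 1.

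Apoe, the lipid carrier often read as a macrophage gene, was higher in bulge SCs. It ran from 843 to 58850 TPM in bulge SCs (median 8982, all 83 cells positive) and from 0 to 28688 TPM in myeloid cells (median 1.2, 37 of 73 positive). The difference was -4.61, with an SD over cells of 2.96 in the myeloid cells. The myeloid values split with the C1q genes, as Apoe was present in all 23 cells with 3 C1q chains (median 6477 TPM) and in 11 of the 46 cells with none.

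Few lineage transcription factors passed 1. Of 33 measured myeloid factors 23 lay above 0, 2 passed 1 and Nr4a1 passed -1 (median 0.18). Spi1, which encodes PU.1, the main factor of myeloid fate, ran from 0 to 1126 TPM in myeloid cells (median 264, 68 cells positive) and from 0 to 156 TPM in bulge SCs (median 0, 5 cells positive), a difference of 1.87. Irf5, an interferon regulatory factor of inflammatory macrophages, was present in 58 and 19 cells, and Zeb2, a repressor needed by several myeloid lineages, in 58 and 3. Irf8, a dendritic cell factor, was present in 21 of 73 myeloid cells. Of 41 epithelial and bulge factors 38 lay below 0 and 5 passed -1 (median -0.29), and 24 were listed at 0 in every myeloid cell. Among all 10527 genes, 7810 lay below 0 and 2.09% passed -1 (median -0.08). Trp63, which encodes p63, the master factor of stratified epithelia, ran from 0 to 777 TPM in bulge SCs (median 186, 81 cells positive) and was listed at 0 in the myeloid cells. Gata3, a follicle lineage factor, was present in 77 bulge SCs (297 TPM) and 3 myeloid cells (2.77 TPM), a difference of -1.70. Klf5 and Tfap2c were present in 60 and 63 bulge SCs, Sox9 and Lhx2, known from bulge SCs, in 36 and 23, and all 4 in no myeloid cell. Klf4, a factor of both barrier epithelium and monocytes, was present in 37 myeloid cells (64.3 TPM) and 75 bulge SCs (105 TPM).

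Of 24 measured NF-kB pathway genes 18 lay above 0 and 3 passed 1 (median 0.42), namely Traf1, Nfkbib and Tnip3. Nfkbia, the feedback inhibitor, was in most cells of both groups and differed by -0.85. For epithelial signalling, all 30 WNT pathway genes lay below 0 with only Wls, which escorts WNT ligands to the surface, past -1 (median -0.12). Over all genes the median was -0.08 and 2.09% passed -1, so the WNT list was near the background in both. In every myeloid cell 18 of the 30 were listed at 0. Of the BMP and TGF-beta genes, Id1 and Id3, targets of BMP signalling, passed -1. Id3 was present in 76 bulge SCs (1052 TPM) and 7 myeloid cells (27.6 TPM), and Id1 in 54 (764 TPM) and 3 (1.94 TPM). Of 27 genes of the EGFR, FGF and IGF pathways 24 lay below 0 (median -0.26), against 7810 of all 10527 genes. Hbegf, Fgfr2, Igfbp3 and Fgfbp1 passed -1. Fgfr2, a receptor of follicle growth factors, was present in 68 bulge SCs and no myeloid cell.

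**Figure D4:**
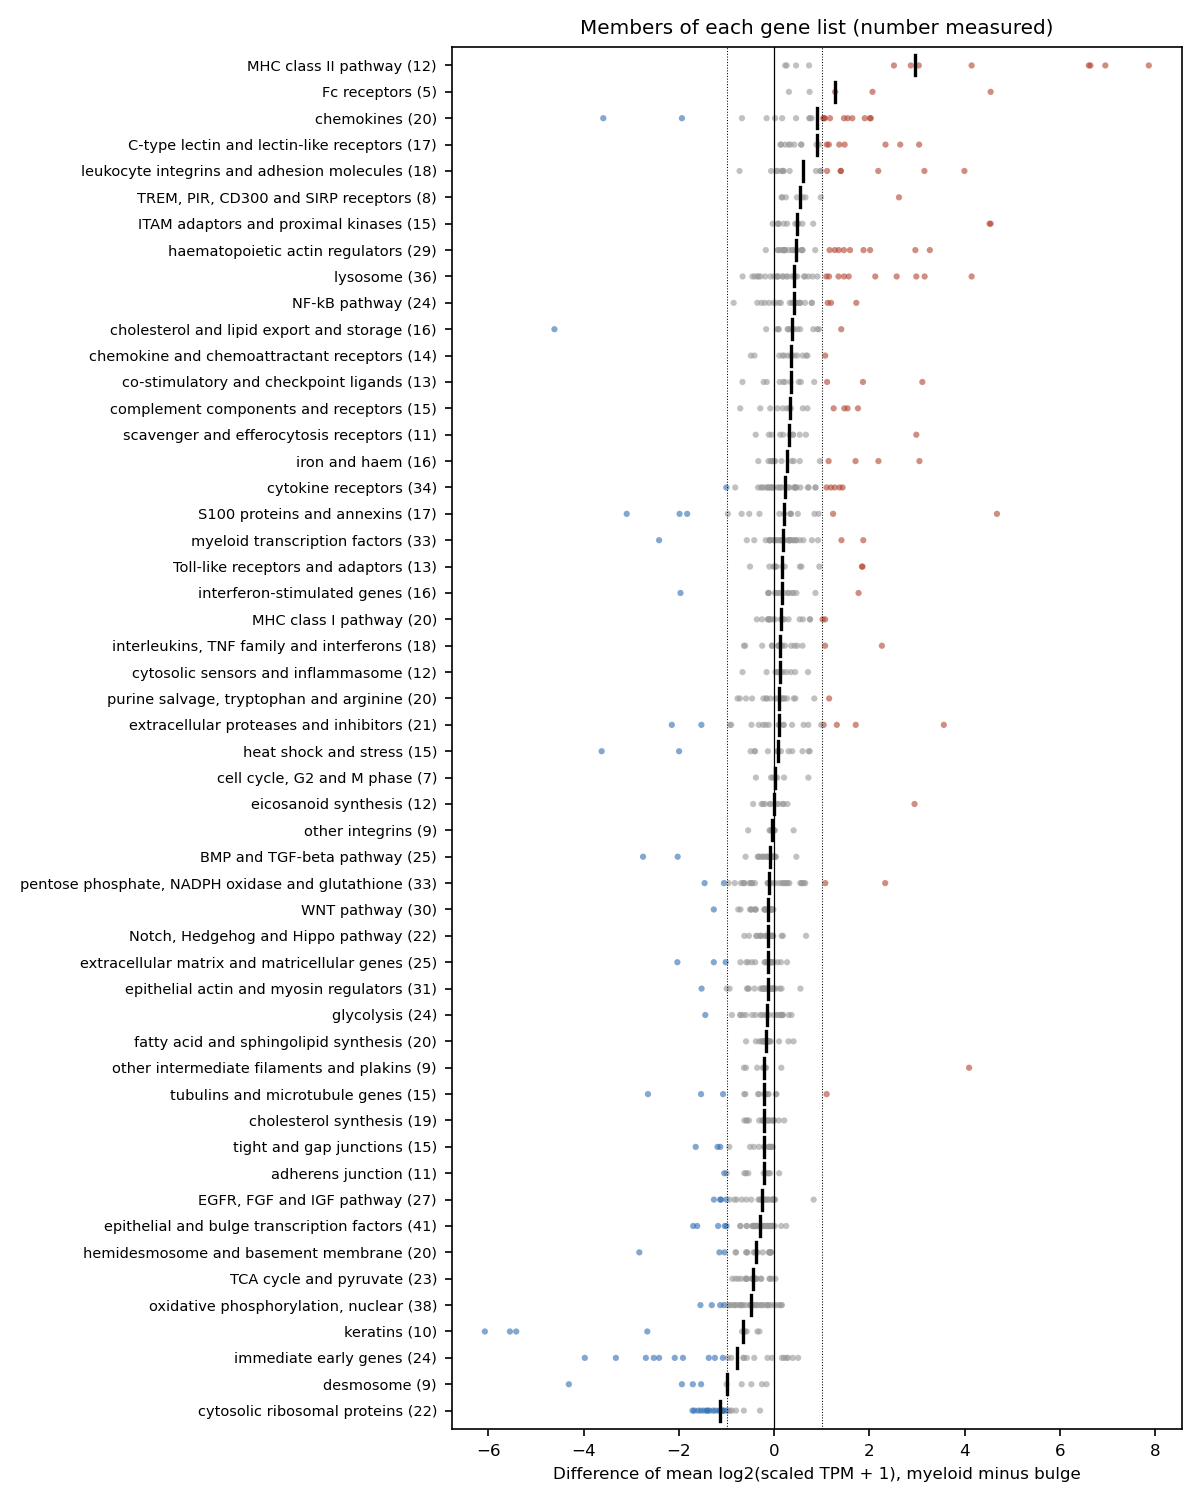
Difference (myeloid minus bulge, mean log2 scale) of each measured member of 52 gene lists, 1 row per list, with a bar at the list's median. MHC class II lies farthest to the right (median 2.95) and cytosolic ribosomal proteins farthest to the left (median -1.14).

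Cytosolic ribosomal protein genes were the list with the lowest median among those shown, at -1.14, with all 22 measured members below 0 and 16 passing -1. Rpl4 ran from 3.4 to 2763 TPM in myeloid cells (median 918) and from 175 to 5799 TPM in bulge SCs (median 3377), and Rps4x from 26.3 to 4335 TPM (median 1080) and from 484 to 7112 TPM (median 3618). The ranges overlapped and the means differed by -1.71 and -1.67 on the log2 scale. In the cells matched on the number of genes the list's median was -1.31.

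Immediate early genes, which cells switch on within minutes of a stimulus, also leaned to the bulge SCs on these plates. Of 24 measured 10 passed -1 and none passed 1 (median -0.77, or -0.35 in the matched cells). Fos ran from 0 to 32901 TPM in bulge SCs (median 7039) and from 0 to 6462 TPM in myeloid cells (median 222). Egr1 ran from 0.28 to 4698 TPM in bulge SCs (median 1400) and from 0 to 1158 TPM in myeloid cells (median 0). Atf3 had medians of 3429 and 199.6 TPM, Jun of 592 and 0 TPM. Hspb1, a small heat shock protein, was present in 82 bulge SCs (2652 TPM) and 19 myeloid cells (499 TPM), and the metallothionein gene Mt2 in 81 (2778 TPM) and 34 (362 TPM). Hspb1 had the lowest difference (-3.62) of the 15 measured heat shock and stress genes, of which 9 lay above 0 and 2 passed -1. The median of that list was 0.08, and it was -0.52 on unscaled TPM.

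The 3 other plates of these cell types in the series, bulge SCs of WT mice at P30 (84 cells kept) and both types from mutant mice at P56 (89 bulge SCs and 72 myeloid cells), showed which levels recurred outside these plates. Of the 161 genes higher in myeloid cells, 158 were higher in both myeloid plates than in all 3 bulge plates, against 15.8% of all genes. Of the 220 genes higher in bulge SCs, 195 were lower in both myeloid plates than in all 3 bulge plates, against 48.4% of all genes. With a gap of at least 1 between the plates, the counts were 109 (1.04% of all genes) and 61 (0.579%). The WT plates are themselves among the 5, so these counts describe recurrence and are no independent support. The class II list's median level was 3.23 and 3.20 in the WT and mutant myeloid plates, and 0.14, 0.03 and 0.14 in the bulge plates of WT P56, WT P30 and mutant mice.

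The immediate early genes recurred in part. Their list's median level was 1.79 in WT P56 bulge SCs but 1.01 at P30 and 0.49 in mutant bulge SCs, against 0.62 and 0.53 in WT and mutant myeloid cells. In the mutant pair the list's median difference was 0.11. Only 4 of the 10 genes past -1 were lower in both myeloid plates than in all 3 bulge plates. The ribosomal list kept its direction, with median levels of 4.78, 4.12 and 4.42 in the bulge plates and 3.42 and 3.83 in the myeloid plates, and 14 of its 16 genes past -1 did so gene by gene. Gm10260 averaged 1299 TPM in WT P56 bulge SCs but 0.95 and 0.72 TPM in P30 and mutant bulge SCs, so its high level did not recur there. Gm26619 averaged 171 TPM against 25.6 and 42.9 TPM, and Gm10020 462 against 657 and 486 TPM.

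**Figure D5:**
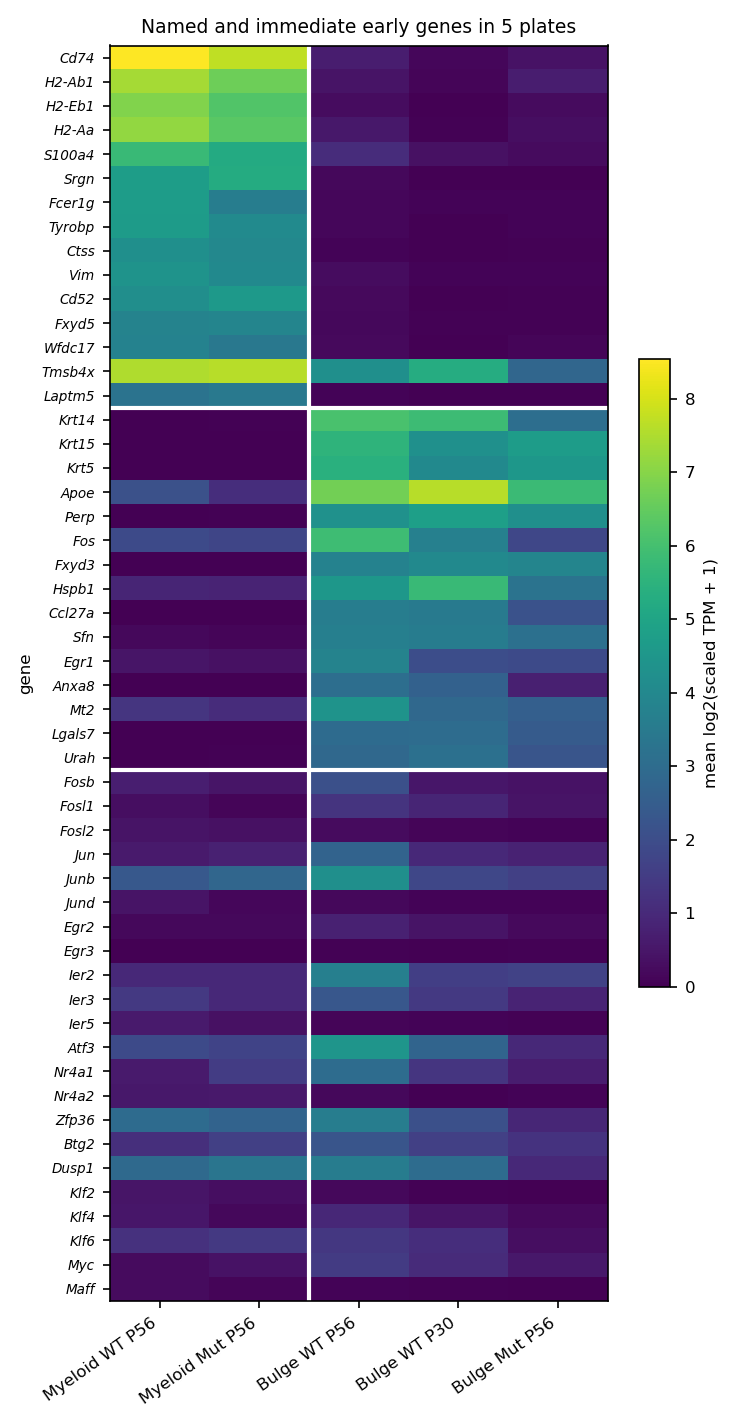
Mean level (log2 of TPM scaled to 10000 + 1) of the 30 genes with the widest differences and of immediate early genes in the 5 plates of bulge SCs and myeloid cells, 1 column per plate and lighter for higher. Cd74 stands at 8.54 and 7.72 in the myeloid plates and below 1 in the bulge plates, while Fos and Egr1 are highest in WT P56 bulge SCs.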

How the data were processed

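Single cells of 5 plates were read from tables of TPM that the authors deposited, 1 row per gene and 1 column per cell. The submitters' processing notes name STAR 2.4.2 and builds GRCm38 and mm10, and the methods name RSEM and GENCODE annotation. The methods call the values FPKM, whereas the labels of the deposited tables call them TPM. Values were rounded to 1 decimal in the myeloid tables and to 2 in the bulge tables. Read depth per cell is unknown, because TPM keeps no counts. The 31002 gene IDs gave 30959 symbols, with 27 symbols that a spreadsheet had turned into dates restored by ID and 38 symbols with several IDs averaged. A further 1 column had no matching label and was set aside, as were the melanocyte tables. The methods state that chambers without exactly 1 cell were excluded by eye, and no doublet caller was run.

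Groups came from the labels. Levels, shares at 1 TPM, exact 95% intervals and differences were computed as stated above with NumPy 2.4.6, SciPy 1.17.1, pandas 2.3.3 and matplotlib 3.10.9 under Python 3.11.15 and checked on simulated data. With 1 plate per group no test was run. The 68 gene lists, the pairs and the members were chosen with earlier results of these data known. Named were the 15 largest differences each way among genes present in 25% of cells of either group, without mitochondrial, ribosomal, predicted, sex-linked and pseudogenes. Also named were up to 4 members of each list and up to 2 in the opposite direction, members of the pair tables, and 4 marker genes. Genes named outside this rule, such as those without overlap and those read by C1q presence, were chosen after their values were seen. Of 1279 listed genes, 8 had no row and were not analysed here. The alternatives changed the pseudocount, scaling, gene filter, cell filter, wells, matching and centring.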

Additional observations from a re-analysis of the deposited data

Results flagged for a closer look

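Junb, a subunit of the AP-1 transcription factor, was the 1 gene called in opposite directions in the WT and the mutant pair of plates at P56. Its difference, myeloid minus bulge, was -1.91 in the WT pair and 1.21 in the mutant pair. Mean Junb was 2166 TPM in WT P56 bulge SCs and 530 TPM in WT myeloid cells, against 559 TPM in mutant bulge SCs and 1100 TPM in mutant myeloid cells, and it was 356 TPM in WT bulge SCs at P30. It was present in all 83 WT P56 bulge SCs and in 68 of 73 WT myeloid cells, and the ranges of these cells overlapped (1.14 to 5872 TPM and 0 to 2348 TPM). The difference between the pairs was not tested, since each arm was 1 plate.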

How the results depend on the processing

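No paired analysis was possible because each group was 1 plate and the labels tie no myeloid cell to a bulge SC. Genes past 1 in myeloid cells and bulge SCs numbered 161 and 220, and became 603 and 1676 with a pseudocount of 0.1 and 974 and 4051 on unscaled TPM, since scaling to 10000 shrinks differences of low genes. In the 8 other settings they numbered 156 to 214 and 181 to 235. None of the 381 genes changed sign in any setting, although the gene filter and centring could not have changed one. Genes without overlap, 1 and 6, became 0 and 1 without the cell filter, 3 in myeloid cells without the 8 wells led by another lineage, and 7 and 23 when up to 5% of cells could lie on the wrong side. Of 59 list medians, at most 3 changed sign in a setting. Over all settings, differences of the 30 leading genes moved by less than 1 SD over cells 244 times and by more 56 times, and list medians 463 and 123 times. The 244 include the gene-filter settings, which leave the difference of a single gene unchanged. Read depth, animals and the myeloid gates are unknown, so a gene at 0 may be below detection, and plate, amplification and lineage cannot be told apart.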

Other observations

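The histone H2B genes Hist1h2bf and Hist1h2bm were present in bulge SCs and nearly absent from myeloid cells. They were chosen after their values were seen and belong to a family of near-identical genes. The bulge gate the study gave for its RNA-seq used K14-H2B-GFP mice, which carry a GFP-tagged H2B histone. Whether reads of that transgene were assigned to these genes was not tested. Hist1h2bf was present in 79 of 83 WT P56 bulge SCs at a mean of 63.8 TPM and in 1 of 73 WT myeloid cells. Hist1h2bm was present in 79 of 83 bulge SCs at a mean of 119 TPM and was listed at 0 in the WT myeloid cells. In the other bulge plates, Hist1h2bf was present in 75 of 84 cells at P30 and 84 of 89 mutant cells, and Hist1h2bm in 76 and 88.

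Of 272 genes present in at least 90% of the cells of both groups, 19 were higher in myeloid cells by 1 or more and 46 in bulge SCs. Only 11 genes were present in at least 90% of myeloid cells and at most 10% of bulge SCs, and 28 in the reverse. The thymic stromal lymphopoietin receptor gene Crlf2 was present in 58 of 73 myeloid cells (79.5%) and 8 of 83 bulge SCs (9.64%), and its ligand Tslp in 11 of each group.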
